A study of Drosophila melanogaster with 26 samples.

Results

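Primordial germ cells (PGCs) sorted from 3-to-5 hour Drosophila melanogaster embryos laid by smaug-mutant mothers were set against PGCs of wild-type embryos of the same age, on the level of each transcript within that time point. The members are the 7 samples whose titles give this cell type and age, 3 smaug and 4 wild-type biological replicates, of 26 samples in 7 groups in the series. The other groups are PGCs of both genotypes from 1-to-3 hour and from 5-to-7 hour embryos, and somatic cells from wild-type embryos of the earliest age. Transcripts were measured on custom 2-dye NimbleGen arrays after amplification of the RNA, and levels are given as log2 of the normalized signal, so that a difference of 1 is a 2-fold change.

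The smaug embryos came from hemizygous females, with the smg1 allele over a deficiency. The stocks listed by the labels are w1118, VASA-GFP/CyO with PrDr/TM3,Sb, the same transgene with smg1/TM3,Sb, and a stock carrying Df(3L)Scf-R6 over TM3,Sb; the labels do not say which of them was collected as wild type. VASA-GFP, a green fluorescent fusion of a germ cell protein, marked the PGCs, which were sorted by flow cytometry from many embryos at once. The loss of smg and the other genes removed by the deficiency, or the stocks' remaining background, cannot be told apart. By the labels the 3 smaug samples carried Cy3 and the 4 wild-type samples Cy5, whereas the study's methods give the opposite dyes. In either case dye and genotype cannot be told apart at 3-to-5 hours. For the earlier and the later age the labels give Cy5 for both genotypes.

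Smaug is an RNA-binding protein made in the egg from maternal mRNA. It binds stem-loops in its target mRNAs, represses their translation and brings in the CCR4-NOT deadenylase, which shortens the poly(A) tail and starts decay. In early embryos it is required for clearance of many maternal mRNAs and for full activation of the zygotic genome, the 2 sides of the maternal-to-zygotic transition. PGCs form at the posterior pole around the germ plasm, hold back transcription longer than the somatic cells, and keep several mRNAs that the soma removes.

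The smg transcripts themselves were lower in every smaug sample. Transcript FBtr0076549 had signals of 10.92, 10.97 and 11.10 in smaug PGCs, against 12.02, 12.16, 12.19 and 12.06 in wild-type PGCs, a difference of -1.11 (standard error 0.13, adjusted p = 0.000747, limma). The brighter FBtr0076550 had 11.46, 11.67 and 11.73 in smaug PGCs, against 12.48, 12.52, 12.66 and 12.61 in wild-type PGCs, a difference of -0.94 (adjusted p = 0.00185, limma). With all 7 groups of the series in 1 fit the first no longer passed the test (adjusted p = 0.425, limma). The groups did not overlap for either transcript, and a signal well above the array controls remained in the mutant. At 1-to-3 hours the differences were -3.09 and -2.18. Which part of the gene each probe set covers was not analysed here.

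The cells carried germ cell transcripts in both genotypes. All 9 PGC markers had a signal, from 10.4 for bam to 15.8 for pgc in smaug PGCs and from 10.4 for osk to 15.3 for pgc in wild-type PGCs, where the median of the 16 array controls was 4.46 to 4.66 in smaug samples and 4.16 to 4.40 in wild-type samples. Transcripts of somatic cells were low but differed between the genotypes. The 50 transcripts most enriched in wild-type somatic over wild-type PGC samples at 1-to-3 hours, taken from those with a mean somatic level above 12, stood at a median of 0.375% to 0.464% of their somatic level in smaug PGCs and of 1.05% to 1.37% in wild-type PGCs. Of these 50, 24 were lower in smaug PGCs and 0 higher, with a median difference of -1.35. The median log2 signal of the 50 was 5.23, 5.41 and 4.98 in the smaug samples, near the array controls. The smaug shares and the size of this difference are therefore limited by the floor of the array. Fewer somatic cells in a sort and less somatic RNA per cell cannot be told apart in such bulk samples, and the part of this difference in the results below was not tested.

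In all, 1458 of 16623 transcripts (8.77%) were higher in smaug PGCs and 1301 (7.83%) lower, at an adjusted p below 0.05 in limma and a fold change above 2; such transcripts are called higher or lower below. Of these 2759 (16.6%), 2714 had samples that did not overlap between the genotypes, as 39.7% of all transcripts had. Most differences were between 2-fold and 4-fold, 1184 higher and 1025 lower, and 12 transcripts were higher and 26 lower by more than 4 on the log2 scale. The median difference over all transcripts was 0.01. The normalization of the authors gives every array nearly the same distribution of signals, so a change in the total RNA of a cell cannot be seen. The median within-group standard deviation was 0.26 in smaug and 0.25 in wild-type samples, and the rank correlation over transcripts was 0.963 to 0.965 within smaug, 0.970 to 0.977 within wild type and 0.935 to 0.947 between genotypes.

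Called transcripts lay at different heights. The 1458 higher transcripts had a median level of 10.5 in smaug PGCs and 8.80 in wild-type PGCs, and 199 of them lay within 1 of the controls' median in wild type. The 1301 lower transcripts had a median of 8.19 in smaug PGCs and 10.0 in wild-type PGCs, and 238 of them lay within 1 of the controls' median in the mutant. For those the size of the difference is limited by the floor of the array. The soma-enriched transcripts accounted for more of the lower than of the higher calls (an exclusion chosen after seeing the data): without the transcripts that were over 2-fold higher in somatic cells than in PGCs of wild-type 1-to-3 hour embryos, 1247 transcripts were higher and 886 lower among 13643.

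**Figure D1:**
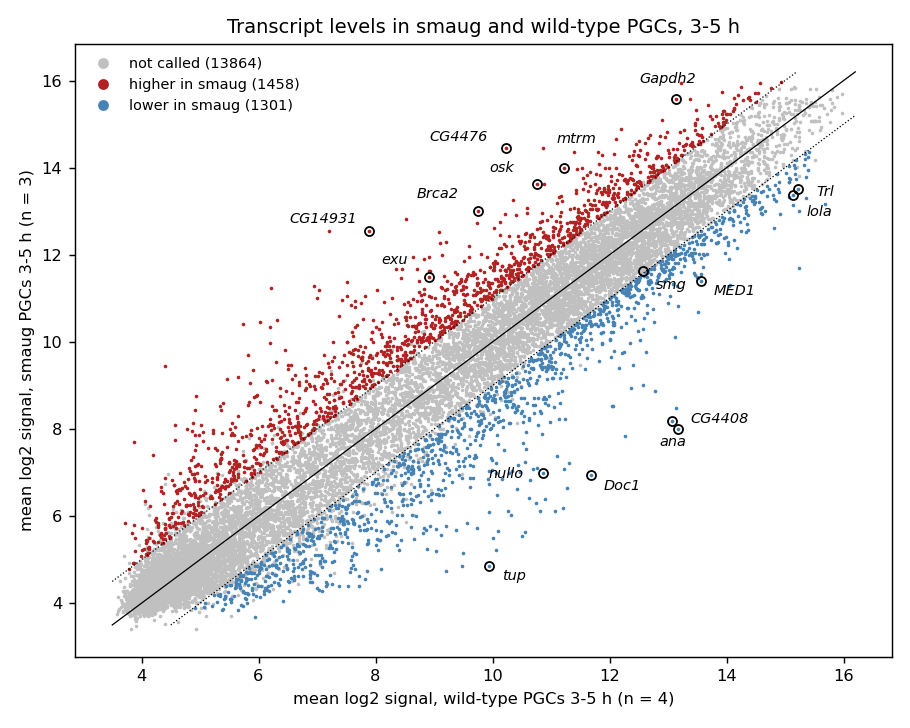
Mean log2 signal of 16623 transcripts in smaug PGCs (vertical axis, 3 samples) against wild-type PGCs (horizontal axis, 4 samples), with the 1458 higher transcripts in red and the 1301 lower in blue. The solid line marks equal levels and the dotted lines a 2-fold change; some of the largest lower differences, such as tup at -5.08, end near the level of the array controls in smaug PGCs.

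Gene names could be given to 5415 transcripts of 4816 genes, each gene being represented by its brightest transcript. Of these genes, 529 (11.0%) were higher and 601 (12.5%) lower in smaug PGCs, and their median difference was -0.04. These shares are the background for the gene lists below.

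Named genes were ranked among those called and without overlap between the genotypes. The 10 with the largest higher differences were CG14931, CG9547, CG4476, Taf12L, CG12811, sut1, Brca2, cnc, CG32158 and CG46385. CG14931 had signals of 12.67, 12.47 and 12.51 in smaug PGCs, against 7.82, 7.34, 8.26 and 8.12 in wild-type PGCs, a difference of 4.67 (standard error 0.23, adjusted p = 5.41e-05, limma). Taf12L, a relative of the TFIID subunit TAF12, had 14.47, 14.54 and 14.32 in smaug PGCs, against 10.77, 10.72, 11.01 and 10.94 in wild-type PGCs, a difference of 3.59 (standard error 0.14, adjusted p = 2.83e-05, limma). Brca2, which loads the recombinase at DNA double-strand breaks, had 12.87, 13.23 and 12.93 in smaug PGCs, against 9.63, 9.61, 9.88 and 9.86 in wild-type PGCs, a difference of 3.26 (standard error 0.15, adjusted p = 5.16e-05, limma). In these 3 genes the genotypes lay far apart and the replicates of a genotype close together. The sugar transporter gene sut1 was higher by 3.30 and cnc, which encodes the bZIP factor Cap'n'collar, by 3.23. CG32158 was the least regular of the 10. It had 12.08, 12.35 and 12.45 in smaug PGCs and 10.48, 7.56, 9.13 and 9.65 in wild-type PGCs, a difference of 3.09 (standard error 0.61, adjusted p = 0.00736, limma).

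The 10 named genes with the largest lower differences were CG4408, tup, CG32643, KP78a, Sr-CII, KP78b, ana, CG13653, Doc1 and Doc3. CG4408 had signals of 8.86, 8.18 and 6.98 in smaug PGCs, against 13.18, 13.03, 13.38 and 13.09 in wild-type PGCs, a difference of -5.16 (standard error 0.40, adjusted p = 0.000209, limma). The gene ana, which encodes the secreted glycoprotein Anachronism, had 7.88, 8.93 and 7.75 in smaug PGCs, against 12.84, 13.07, 13.39 and 12.98 in wild-type PGCs, a difference of -4.89 (standard error 0.30, adjusted p = 0.000107, limma). Both are abundant in wild-type PGCs, and at this age both were above the controls in the mutant. The kinase gene KP78a had 5.69, 6.32 and 6.33 in smaug PGCs, against 10.81, 11.73, 10.93 and 10.79 in wild-type PGCs. Its paralogue KP78b had 6.09, 5.38 and 5.47 in smaug PGCs, against 10.78, 10.37, 10.51 and 10.52 in wild-type PGCs. The 2 paralogues thus differed by nearly the same amount, -4.95 and -4.90, and how far their probes share sequence was not analysed here.

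Several of the remaining genes are known from somatic patterning. The LIM-homeodomain gene tup had 5.21, 4.62 and 4.74 in smaug PGCs, against 10.65, 8.75, 10.12 and 10.25 in wild-type PGCs, a difference of -5.08 (standard error 0.43, adjusted p = 0.000274, limma). Its smaug level lay within 1 of the controls' median, so the difference is bounded by the floor. The T-box gene Doc1 had 6.70, 7.29 and 6.81 in smaug PGCs, against 11.66, 11.88, 11.69 and 11.53 in wild-type PGCs, a difference of -4.76 (standard error 0.18, adjusted p = 2.83e-05, limma). Doc3 had 5.72, 6.54 and 6.08 in smaug PGCs, against 10.98, 10.84, 10.82 and 10.61 in wild-type PGCs. The Dorsocross genes act in the dorsal ectoderm and amnioserosa, and these 2 had like signals in all wild-type samples. The scavenger receptor gene Sr-CII had 4.41, 6.10 and 6.15 in smaug PGCs, against 10.68, 10.49, 10.25 and 10.56 in wild-type PGCs.

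**Figure D2:**
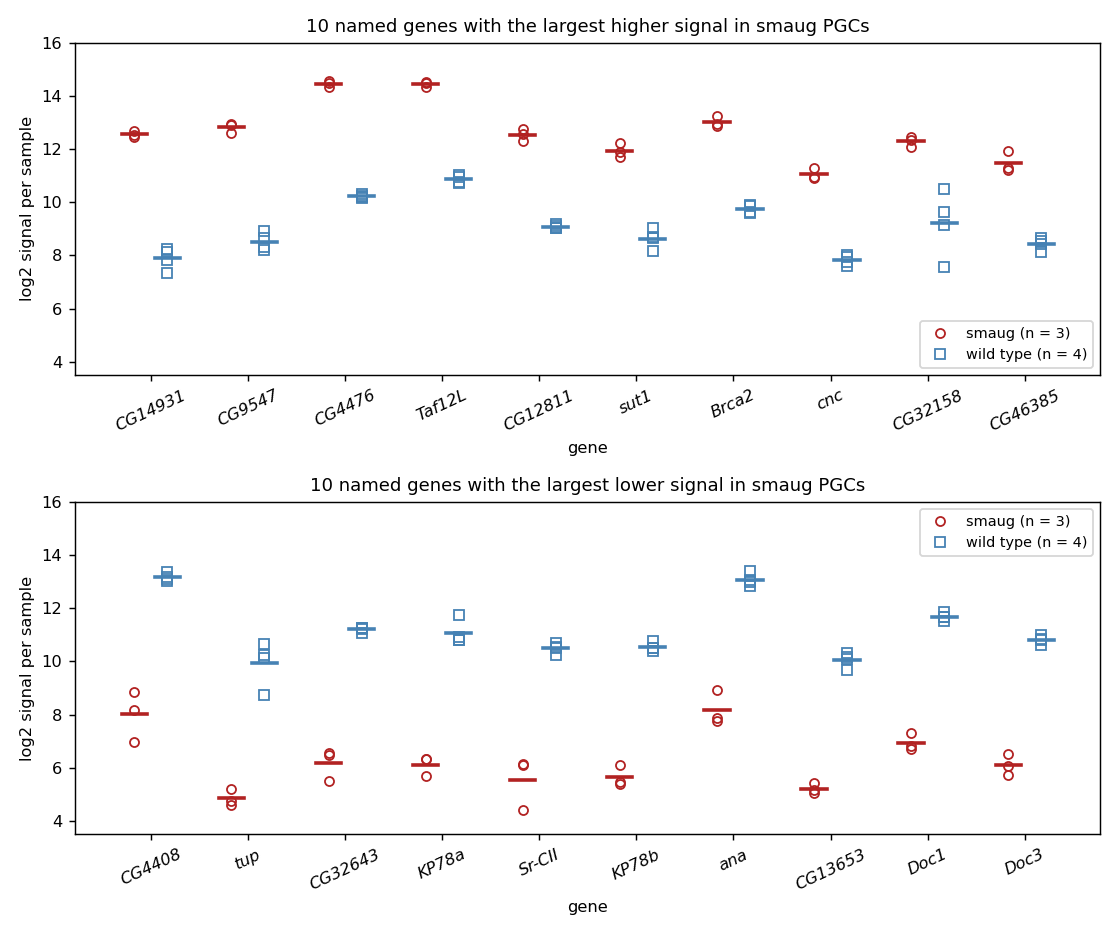
Log2 signal of each sample for the 10 named genes with the largest higher (upper panel) and lower (lower panel) differences, with smaug samples as red circles to the left of wild-type samples as blue squares, and bars at the group means. The 20 genes were chosen among those without overlap between the genotypes, and CG32158 has the widest wild-type spread, 7.56 to 10.48.

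Transcripts without a gene name were among the largest differences too. FBtr0075384 had 12.37, 12.48 and 12.78 in smaug PGCs, against 5.38, 6.85, 7.42 and 9.17 in wild-type PGCs, a difference of 5.34 with a standard error of 0.77. FBtr0072453 had 8.85, 9.97 and 9.54 in smaug PGCs, against 4.19, 4.21, 4.44 and 4.79 in wild-type PGCs, where it lay at the level of the controls.

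Many transcripts of the germ plasm and of RNA localization were higher in smaug PGCs. Of 30 named genes on this list, 11 were higher and 0 lower, where 11.0% of all named genes were higher and 12.5% lower. On the list 26 had a positive difference, and the median difference was 0.85. They are mRNAs loaded in the mother, and many of their products act together in the localization and translation of maternal RNA at the posterior pole. The increase did not reach every germ cell transcript to the same degree. The study names exu, orb, aret, BicC, spir and fs(1)K10 as Smaug-dependent from data that include these samples. The counts of this list are therefore not independent evidence.

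The gene osk, whose product organizes the germ plasm, had signals of 13.56, 13.91 and 13.38 in smaug PGCs, against 10.44, 10.75, 11.08 and 10.74 in wild-type PGCs, a difference of 2.86 (standard error 0.20, adjusted p = 0.000153, limma). The gene mtrm, which encodes the Polo kinase inhibitor Matrimony of the oocyte, had 13.82, 14.12 and 14.02 in smaug PGCs, against 11.20, 11.22, 11.25 and 11.23 in wild-type PGCs, a difference of 2.76 (standard error 0.13, adjusted p = 5.16e-05, limma). The gene exu, needed for localization of bicoid mRNA, had 11.46, 11.46 and 11.55 in smaug PGCs, against 8.67, 9.21, 8.77 and 8.97 in wild-type PGCs, a difference of 2.58. These 3 transcripts were 5.99 to 7.28 times as high in the mutant. The other named exu transcript, the dimmer FBtr0086244, differed by 0.97 and was not called (adjusted p = 0.0579, limma).

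The regulators of translation on the list followed with smaller differences. The gene orb, which encodes the CPEB homologue, had 13.45, 13.41 and 13.62 in smaug PGCs, against 11.23, 11.79, 11.46 and 11.25 in wild-type PGCs, a difference of 2.06. The gene aret, which encodes the translational repressor Bruno, had 14.53, 14.43 and 14.71 in smaug PGCs, against 12.44, 12.56, 12.77 and 12.63 in wild-type PGCs, a difference of 1.96. BicC, an RNA-binding protein gene of the oocyte, had 12.06, 11.59 and 11.85 in smaug PGCs, against 10.64, 10.56, 10.33 and 10.04 in wild-type PGCs, a difference of 1.44. The other called members were piwi at 1.76, fs(1)K10 at 1.69, vas at 1.36, spir at 1.35 and cup at 1.13, so no called member of the list was lower.

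The nos mRNA, whose translational repression by Smaug in the soma is a textbook case, had 14.84, 14.72 and 14.55 in smaug PGCs, against 13.73, 13.97, 13.94 and 13.89 in wild-type PGCs. The difference of 0.82 (standard error 0.14, adjusted p = 0.00371, limma) passed the test but stayed under the 2-fold limit, and it missed the threshold with all 7 groups in 1 fit (adjusted p = 0.168) and with the replicate number as a block (adjusted p = 0.0520). Hsp83, a target of Smaug-dependent decay in the soma, had 15.01, 14.96 and 14.69 in smaug PGCs, against 14.74, 14.78, 14.95 and 14.95 in wild-type PGCs. Its groups overlapped and the difference of 0.03 (standard error 0.14, adjusted p = 0.892, limma) changed sign in 4 of the alternatives run. Of the 9 PGC markers, osk, orb and vas were higher, 0 were lower, and the median difference was 0.82; pgc, the gene of the repressor of germ cell transcription, differed by 0.65, gcl by 0.61, zpg by 0.46 and bam by -0.70.

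A list of 13 genes that the study names in connection with Smaug was chosen on these same samples, so their directions are not independent evidence. Of them 7 were higher (aret, BicC, exu, Brca2, numb, ttk and foxo) and 2 lower (lola and Trl), with a median of 1.16. The gene numb, an inhibitor of Notch signalling, had 11.06, 10.90 and 11.13 in smaug PGCs, against 8.30, 9.44, 8.90 and 9.13 in wild-type PGCs, a difference of 2.09. The gene foxo, a transcription factor downstream of insulin signalling, was higher by 1.16 but dim, at 7.02 to 7.53 in smaug PGCs and 5.40 to 6.27 in wild-type PGCs. InR at -0.17 and koko at -0.12 were not called, nor were the brighter smg transcript and bam. These are levels within 3-to-5 hours, whereas the study compared changes from the previous age, and named bam for 5-to-7 hours. The difference at 3-to-5 hours minus that at 1-to-3 hours was 2.03 for InR and 1.24 for smg (adjusted p = 0.00442 and 0.0128, limma). It was 0.11 for koko and 0.12 for bam (adjusted p = 0.727 and 0.827, limma). Another Trl transcript, FBtr0075705, was higher by 1.66.

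Genes of the stem cell and proliferation list gave 6 higher and 1 lower of 14, with a median of 0.25. Beside Brca2, numb and foxo, the rhomboid protease gene stet had 11.61, 11.66 and 11.77 in smaug PGCs, against 8.38, 8.64, 8.78 and 9.03 in wild-type PGCs, a difference of 2.97. SNCF had 10.17, 8.80 and 10.01 in smaug PGCs, against 12.38, 12.29, 11.73 and 11.70 in wild-type PGCs, a difference of -2.36. Of 18 insulin and Notch pathway genes 3 were higher and 1 lower, with a median of 0.01. Pi3K21B, the regulatory subunit of PI3 kinase, was higher by 2.71 and the Notch ligand gene Dl lower by 1.36, at 7.03 to 7.47 in smaug PGCs and 8.08 to 9.08 in wild-type PGCs. With all 7 groups in 1 fit Dl missed the threshold (adjusted p = 0.163, limma). Both lists thus had called genes on either side. The study names Brca2, numb, foxo and stet for Smaug dependence from data that include these samples, so these counts are not independent evidence.

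Of 20 named genes of mRNA decay and deadenylation, 3 were higher and 1 lower, and the median was 0.24. The gene png encodes the kinase that allows Smaug to be translated after egg activation. It had 13.65, 13.35 and 13.46 in smaug PGCs, against 11.99, 11.92, 12.09 and 11.98 in wild-type PGCs, a difference of 1.49. Edc3, an activator of decapping, was higher by 1.32 (adjusted p = 0.0619 in limma with all 7 groups in 1 fit, which ends the call) and Rcd-1, a CCR4-NOT component, by 1.17. Rga, the NOT2 subunit of the deadenylase, had 11.99, 11.73 and 11.97 in smaug PGCs, against 13.21, 12.97, 13.30 and 13.36 in wild-type PGCs, a difference of -1.32. The catalytic subunits were not called, with differences of -0.57 for twin and -0.12 for Pop2.

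Among 23 chromatin and transcription regulators 2 were higher and 5 lower, with a median of -0.27. The gene lola, a BTB zinc finger factor, had 13.31, 13.33 and 13.49 in smaug PGCs, against 15.29, 15.24, 15.05 and 15.00 in wild-type PGCs, a difference of -1.76. Trl, which encodes the GAGA factor, had 13.26, 13.73 and 13.56 in smaug PGCs, against 15.32, 15.39, 15.00 and 15.19 in wild-type PGCs, a difference of -1.71. The trithorax group gene ash1 was lower by 1.39, zld, the activator of the zygotic genome, by 1.08 and mod(mdg4) by 1.02, while Stat92E, the factor of the JAK-STAT pathway, was higher by 1.34 and ttk by 1.25.

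Transcripts of one gene did not always move together. Of 464 genes with 2 or more named transcripts, 180 had at least 1 called, 57 had all called in 1 direction and 5 had calls in both directions. Trl was one of the 5: FBtr0075705 was higher by 1.66, at a mean of 10.5 in smaug PGCs and 8.86 in wild-type PGCs, while FBtr0075704 was lower by 1.71 and FBtr0075703 by 1.37. For lola, 3 of 16 transcripts were lower and 13 were not called, and the differences ran from -1.97 to 0.94. For mod(mdg4), FBtr0084067 was higher by 1.01 and FBtr0084076 lower by 1.02, with the other 13 not called. The arginine kinase gene Argk had the widest gap, with FBtr0076546 lower by 3.04 and FBtr0076543 higher by 1.25, and par-1 and Rapgap1 were the other genes of the 5. Which probes are shared between the transcripts of a gene was not analysed here.

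The core machinery of RNA polymerase II had 3 higher and 2 lower of 38 genes, with a median of -0.09. MED26, a subunit of Mediator, had 14.39, 14.39 and 14.14 in smaug PGCs, against 11.90, 12.09, 12.26 and 12.07 in wild-type PGCs, a difference of 2.22. With all 7 groups in 1 fit MED26 missed the threshold (adjusted p = 0.0583, limma). MED1, another subunit of the same complex, had 11.37, 11.42 and 11.43 in smaug PGCs, against 13.87, 13.34, 13.43 and 13.59 in wild-type PGCs, a difference of -2.16. These 2 subunits of one complex thus stood on opposite sides. Of the TFIID genes, Taf7 was lower by 1.32 and bip2 higher by 1.14.

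Several transcripts of energy metabolism were higher in smaug PGCs. Of 10 glycolytic genes 5 were higher and 0 lower, with a median of 1.00. Gapdh2 had 15.58, 15.42 and 15.74 in smaug PGCs, against 13.13, 12.87, 13.35 and 13.15 in wild-type PGCs, a difference of 2.45 (standard error 0.16, adjusted p = 0.000116, limma), while Eno, Gapdh1 and Pgi were higher by 1.18 to 1.29; Gapdh1 missed the threshold with all 7 groups in 1 fit (adjusted p = 0.106, limma). Of the 6 named transcripts of the mitochondrial genome 4 were higher and 0 lower, with a median of 1.55. The list takes genes by the mt: prefix and so leaves out ND4, which was higher by 1.23; with it, 5 of 7 were higher and the median was 1.28. The transcript of mt:CoII had 15.64, 15.74 and 15.38 in smaug PGCs, against 12.87, 13.45, 13.56 and 13.59 in wild-type PGCs, a difference of 2.22, and mt:ATPase6, mt:CoI and mt:ND3 were higher by 1.86, 1.83 and 1.28.

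The nuclear genes of oxidative phosphorylation, a list added after values were seen, had calls in both directions: 4 of 43 were higher and 3 lower, with a median of 0.23. ND-B17.2, a complex I subunit gene, was higher by 1.68 and ATPsyn-Cf6, a subunit gene of ATP synthase, lower by 1.38. Of 46 mitochondrial ribosomal protein genes 2 were higher and 9 lower, with a median of -0.16. The lowest was mRpS11, with 13.18, 13.48 and 13.25 in smaug PGCs, against 15.57, 15.02, 15.44 and 15.38 in wild-type PGCs, a difference of -2.05, followed by mRpL12 at -1.64, mRpL11 at -1.48 and mRpL1 at -1.37. Of the 82 cytoplasmic ribosomal protein genes, 6 were higher and 0 lower, with a median of 0.16; RpL21 was higher by 1.60, RpL38 by 1.41, RpL37a by 1.37 and RpLP1 by 1.30. In both lists most genes, 76 cytoplasmic and 35 mitochondrial, were not called, and over all named genes 11.0% were higher and 12.5% lower.

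**Figure D3:**
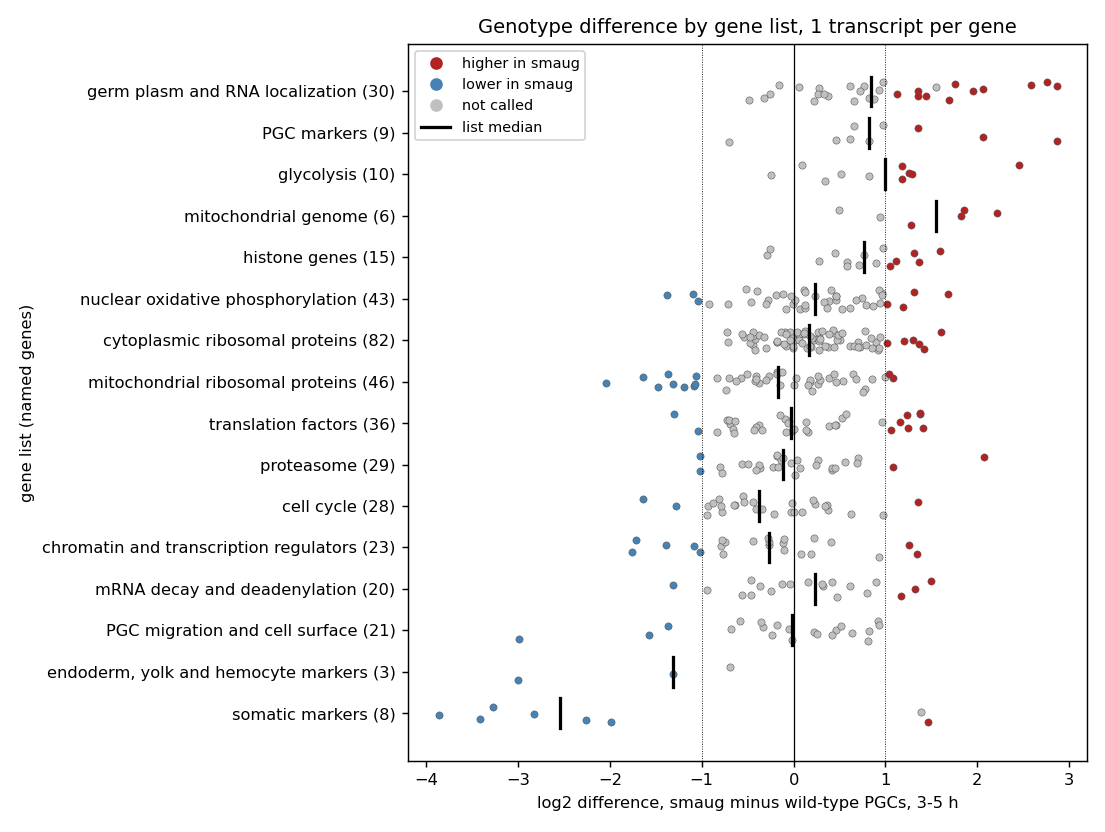
Log2 difference, smaug minus wild-type PGCs, for the named genes of 16 lists, with the number of genes in brackets, higher genes in red, lower genes in blue, and black bars at the list medians. The germ plasm list has a median of 0.85 and no lower gene, the mitochondrial genome 1.55, and the somatic markers -2.54.

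Of 36 translation factor genes, 7 were higher and 2 lower, with a median of -0.03. The higher ones included eIF-2beta at 1.41, the scaffold eIF4G at 1.38 and the poly(A)-binding protein gene pAbp at 1.38, and eIF2B-alpha was lower by 1.30. In the proteasome 2 of 29 genes were higher and 2 lower, with a median of -0.11; Rpn11, the deubiquitinating subunit of the lid, had 14.15, 13.99 and 13.85 in smaug PGCs, against 11.97, 12.01, 11.86 and 11.86 in wild-type PGCs, a difference of 2.07, and Rpn9 was higher by 1.08 while Prosbeta1 and Rpn12 were both lower by 1.02. Histone genes gave 5 higher and 0 lower of 15, with a median of 0.77, led by 3 copies of the H1 gene at 1.31 to 1.59. The H1 copies are nearly identical in sequence, so signal could be shared between them.

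In the cell cycle list 1 of 28 genes was higher and 2 were lower, with a median of -0.38. CycA, the mitotic cyclin A gene, had 13.33, 13.75 and 13.87 in smaug PGCs, against 12.26, 12.27, 12.35 and 12.33 in wild-type PGCs, a difference of 1.35. The replication licensing genes Mcm7 and Orc1 were lower by 1.64 and 1.28. CycB, the B-type cyclin mRNA of the germ plasm, differed by 0.98 in its brighter transcript FBtr0071911, just under the 2-fold limit, while its other transcript, FBtr0071912, was higher by 1.34. Of 16 genes of DNA repair and meiosis 2 were higher and 2 lower, with a median of 0.15: beside Brca2, the synaptonemal complex gene c(3)G was higher by 1.92, and the repair genes spn-B and mre11 were lower by 1.42 and 1.02. Without smaug replicate 3, mre11 was no longer called, with a difference of -0.85 and an adjusted p of 0.0508 in limma.

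Genes of PGC migration and the cell surface had 0 higher and 3 lower of 21, with a median of -0.01. The Slit receptor gene lea had 4.96, 7.67 and 5.68 in smaug PGCs, against 8.40, 9.35, 9.29 and 9.33 in wild-type PGCs, a difference of -2.99 with a standard error of 0.61. Its relative robo had 11.85, 12.42 and 11.78 in smaug PGCs, against 13.35, 13.69, 13.85 and 13.49 in wild-type PGCs, a difference of -1.58, and the third lower gene was Dl. The lipid phosphate phosphatase genes that guide germ cells were not called, with differences of 0.63 for wun and 0.81 for wun2. Among smaller families, 1 of 15 heat shock genes was higher (Hsc70-3, by 1.09), 2 of 20 Rab genes were higher (Rab8 by 2.21 and chrw by 1.18), 1 of 7 tetraspanin genes was higher (Tsp74F, by 1.58), and 0 of 4 Stellate genes were called; in none of these families was a gene called lower. Of 12 cytochrome P450 genes 1 was higher (Cyp6a19, by 2.93) and 3 were lower, with Cyp12c1 at 4.57, 5.40 and 4.61 in smaug PGCs, against 9.46, 9.69, 8.89 and 9.90 in wild-type PGCs.

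Somatic patterning genes were mostly lower in smaug PGCs, and of the 50 soma-enriched transcripts 24 were lower and 0 higher. These 50 stood at a median of up to 0.464% of the somatic level in smaug PGCs and at least 1.05% in wild-type PGCs. The smaug share is limited by the floor of the array. The part of this difference in that of the patterning genes was not tested. Of 22 somatic markers 8 had a named transcript, of which 6 were lower (nullo, zen, en, jbug, Cad74A and Cg25C) and 1 higher (sna), with a median of -2.54. The blastoderm gene nullo had 6.71, 6.87 and 7.41 in smaug PGCs, against 11.54, 10.92, 10.80 and 10.17 in wild-type PGCs, a difference of -3.86. The homeobox gene zen had 9.32, 8.30 and 9.23 in smaug PGCs, against 12.66, 12.64, 11.68 and 12.47 in wild-type PGCs, a difference of -3.41. Its wild-type PGC mean of 12.4 was above its mean of 10.7 in somatic cells of 1-to-3 hours, as that of nullo was, at 10.9 and 9.34, whereas en had a mean of 7.17 in smaug and 10.44 in wild-type PGCs and 14.04 in somatic cells.

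The markers therefore did not all stand below the soma in wild-type PGCs. The mesodermal gene sna went the other way from the rest, with a mean of 9.70 in smaug PGCs and 8.24 in wild-type PGCs, a difference of 1.46, and slam differed by 1.39 with an adjusted p of 0.192 in limma. Of 6 markers of endoderm, yolk and hemocytes 3 had a named transcript, and hkb, a terminal gap gene, was lower by 3.00 and Pxn by 1.32, with ush at -0.69. Pxn, jbug and Cad74A lay within 1 of the controls' median in smaug PGCs, and with all 7 groups in 1 fit Pxn (adjusted p = 0.270, limma) and jbug (adjusted p = 0.0510, limma) missed the threshold.

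By chromosome, the shares of higher and lower genes were alike on the large arms, 9.58% to 11.5% higher and 9.98% to 14.4% lower. On the small chromosome 4 the higher genes had a larger share: of 43 named genes there, 14 (32.6%) were higher and 3 (6.98%) lower, with a median difference of 0.64. MED26 and eIF4G, described above, are 2 of these 14 genes. This chromosome was looked at after its values were seen, and no test was made of it.

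The deficiency in the mothers removes smg together with neighbouring genes, and the genes around smg on arm 3L were therefore read in gene order. Of the 20 protein-coding genes on either side, 21 had a named transcript, of which 10 were lower and 4 higher, and their median difference was -0.98, against -0.04 over all named genes. On one side of smg, orb2, mRpL12, ValRS-m, CG5026 and pix were lower by 1.20 to 1.84 and Mcm7, the farthest of the 20, by 1.64. On the other, CG5087, the next gene, had 9.29, 9.61 and 9.39 in smaug PGCs, against 10.80, 10.75, 11.04 and 11.00 in wild-type PGCs, a difference of -1.47.

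The 3 Dorsocross genes stand at places 2, 4 and 5 beyond smg, and differed far more than the genes around them. Doc2 had 5.41, 5.84 and 5.25 in smaug PGCs, against 9.97, 9.76, 10.16 and 10.15 in wild-type PGCs, a difference of -4.51. Between them CG5194 was higher, with 13.26, 13.11 and 13.17 in smaug PGCs, against 11.02, 11.07, 10.95 and 11.39 in wild-type PGCs, a difference of 2.07. CG4476, one of the largest higher genes, is at place 19 on the same side, and had 14.34, 14.54 and 14.48 in smaug PGCs, against 10.19, 10.14, 10.31 and 10.24 in wild-type PGCs. On that side too, Argk (now Argk1), at place 7, was counted as higher by its brighter transcript, at 1.25. Its other transcript, FBtr0076546, was lower by 3.04. Which of the genes around smg the deficiency removes was not analysed here.

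**Figure D4:**
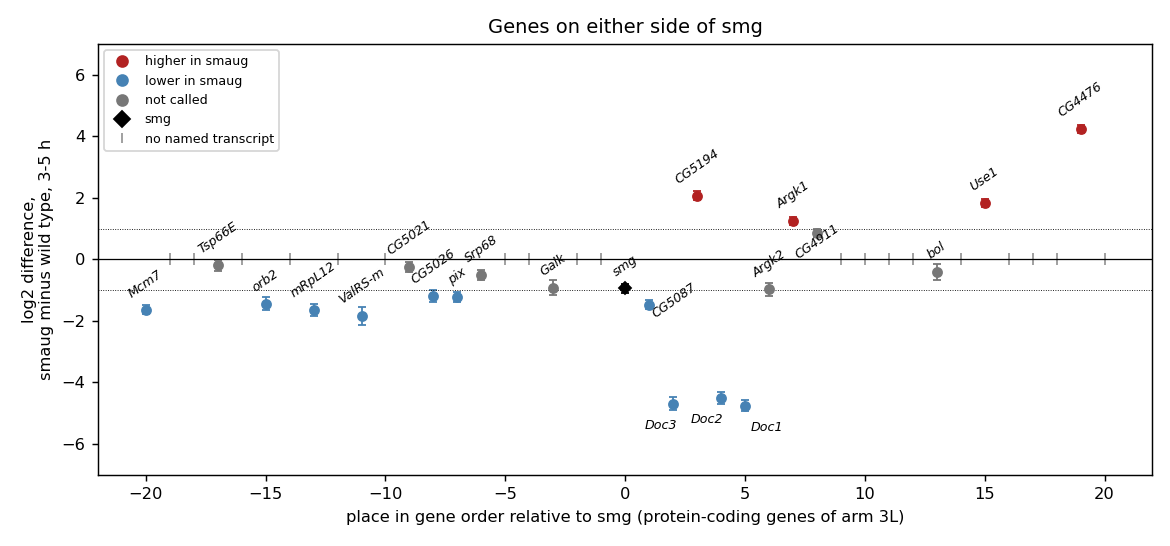
Log2 difference, smaug minus wild-type PGCs, of the named genes among the 20 protein-coding genes on either side of smg, by place in gene order, with bars of 1 standard error. Of 21 neighbours 10 are lower (blue) and 4 higher (red), and Doc1, Doc2 and Doc3 lie at -4.51 to -4.76.

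The same contrast at the other ages used other samples. By the labels both genotypes carried the same dye there, but by the study's methods they carried different dyes. Dye and genotype may therefore be confounded at these ages too. At 1-to-3 hours 1240 transcripts (7.46%) were higher and 997 (6.00%) lower. Of the 1458 higher at 3-to-5 hours, 1248 (85.6%) had a positive difference at 1-to-3 hours and 554 (38.0%) were called higher there, while 13 were called lower. Of the 1301 lower at 3-to-5 hours, 1164 (89.5%) had a negative difference at 1-to-3 hours and 435 (33.4%) were called lower, while 4 were called higher. Direction was thus mostly shared between the ages, with median differences of 0.81 and -0.84 at 1-to-3 hours for the higher and the lower transcripts.

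At 5-to-7 hours 250 transcripts (1.50%) were higher and 165 (0.993%) lower. Replicates 3 and 4 of the wild-type PGCs of that age held the soma-enriched transcripts at 68.3% and 60.4% of the somatic level, against 1.84% to 2.32% in replicates 1 and 2. Without them, 406 were higher and 398 lower. Of the transcripts higher at 3-to-5 hours 1165 (79.9%) had a positive difference at 5-to-7 hours, or 1162 (79.7%) without those replicates. Of the transcripts lower at 3-to-5 hours 947 (72.8%) had a negative difference, or 1043 (80.2%) without them.

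The difference between the ages was tested in the interaction of genotype and time. The genotype difference was more positive at 3-to-5 than at 1-to-3 hours for 640 transcripts and more negative for 538, by over 2-fold and at an adjusted p below 0.05 in limma. Of the 1458 higher transcripts 331 were more positive and 9 more negative at 3-to-5 hours, and of the 1301 lower 177 were more negative and 9 more positive. These transcripts were chosen for their difference in the same 3-to-5 hour samples that enter the interaction. The selection alone tilts both splits this way, so no conclusion is drawn from them.

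Several germ plasm transcripts had a larger genotype difference at 3-to-5 than at 1-to-3 hours, though those named here were picked by their 3-to-5 hour values. The genotype difference of exu was 0.06 at 1-to-3 hours and 2.58 at 3-to-5 hours, an interaction of 2.53 (adjusted p = 0.00028, limma). Its dimmer transcript FBtr0086244 had an interaction of 0.84 (adjusted p = 0.235, limma). For mtrm the interaction was 2.14, for orb 1.67, for aret 1.69 and for BicC 1.38, and over the 30 genes of the list the median difference was 0.18 at 1-to-3 hours with 1 gene higher and 1 lower. The difference of osk was already 1.92 at 1-to-3 hours. The mitochondrial genome behaved otherwise, with a median of 1.68 and 6 of 6 genes higher at 1-to-3 hours. Its median at 5-to-7 hours was -0.04. That value includes wild-type replicates 3 and 4, at 68.3% and 60.4% of the somatic level of soma-enriched transcripts, which limits its reading.

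Among the 10 largest lower genes, CG13653 had a difference of -0.23 at 1-to-3 hours and -4.85 at 3-to-5 hours, an interaction of -4.61 (adjusted p = 0.00288, limma). Its smaug level at 3-to-5 hours lay within 1 of the controls' median, so the size of both values is limited by the floor. It had 5.17, 5.44 and 5.04 in smaug PGCs, against 9.67, 10.09, 10.32 and 10.17 in wild-type PGCs. Doc3 and Doc1 were also more negative at 3-to-5 hours, with interactions of -3.13 and -1.59. CG4408, KP78a, KP78b and ana already had differences of -4.61 to -6.36 at 1-to-3 hours, and of -3.65 to -4.53 at 5-to-7 hours. At 1-to-3 hours the smaug levels of KP78a, KP78b and ana lay within 1 of the controls' median, so these differences are limited by the floor, and at 5-to-7 hours ana did not pass the test (adjusted p = 0.129, limma).

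**Figure D5:**
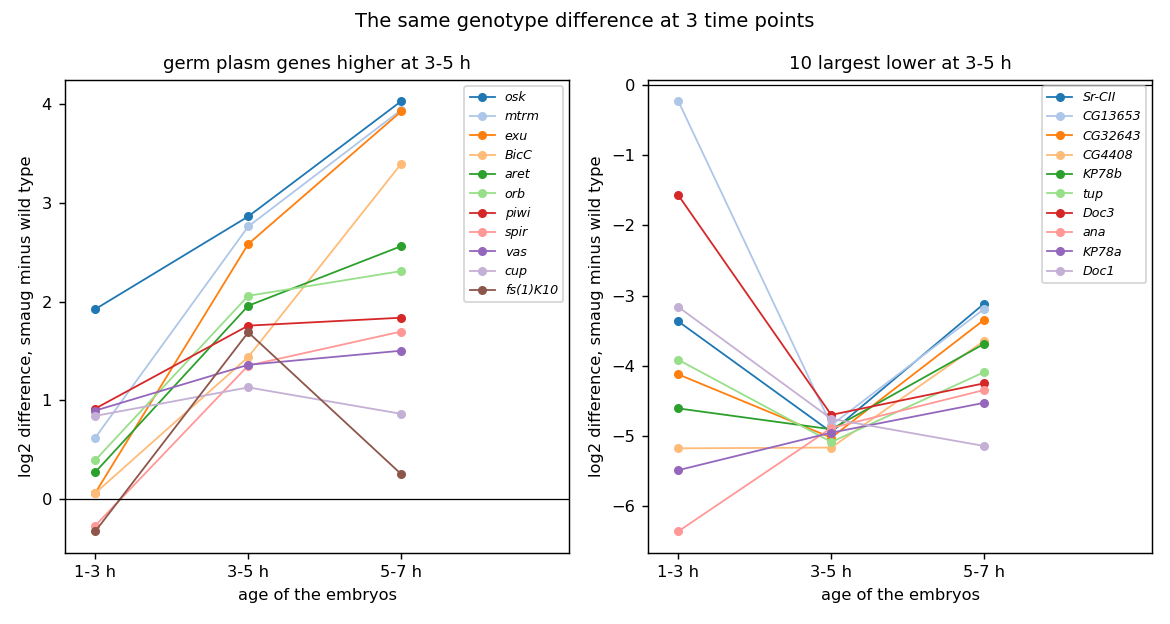
Log2 difference, smaug minus wild type, at each of the 3 ages of embryo for the 11 germ plasm genes higher at 3-to-5 hours (left) and the 10 largest lower genes (right). The left panel starts near 0 for exu and BicC at 1-to-3 hours, and in the right panel KP78a and ana are below -4 at each age; the last time point includes 2 wild-type samples with 60.4% and 68.3% of the somatic level of soma-enriched transcripts.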

How the data were processed

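The authors amplified total RNA, labelled cDNA with 1 of 2 dyes, hybridized 2 samples to each array (which 2 is not given in the sources used here) and normalized the scans by the RMA quantile method. The deposited intensity of each transcript is linear, and log2 of it was taken here. The 16623 features named by a FlyBase transcript entered the tests, and controls and other features did not. Groups were compared with limma 3.58.1 in R 4.3.3, with Benjamini-Hochberg adjustment over all 16623. Called means an adjusted p below 0.05 and a fold change above 2. Since labels name biological replicates without saying more, p-values measure the spread between these samples.

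Transcripts were named through gene tables of the study whose printed values match the deposited ones, and current symbols through RefSeq. All 2236 transcripts found in 2 or more tables had 1 gene each. These tables list transcripts of wild-type comparisons, so named genes lean to those present in wild-type PGCs. A list is given by its counts and median.

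Named are smg, the 10 largest called differences in each direction without overlap between groups, up to 4 called genes per list with the largest differences, nos, Hsp83 and the genes the study names for Smaug. The members and lists were chosen with earlier results of these data known, the exclusion of look-alike symbols came after values were seen, and any other gene named was chosen after its values were seen. Genes near smg follow RefSeq gene order. In simulated data in which 200 of 16623 transcripts had true differences between 1.5 and 3, limma recovered 80% in this comparison, with 3.61% of calls false. The simulated noise was independent between transcripts, with no smaller differences and no effect of dye or somatic cells. Its false share therefore does not describe the 2759 calls in the data. The number of samples limits the precision of the comparison. Alternatives were other normalizations, fits, thresholds and SAM, each sample left out, and soma-enriched transcripts left out, the last chosen after seeing the data.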

Additional observations from a re-analysis of the deposited data

Results flagged for a closer look

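For 6 of 106 transcripts looked at, 1 of the 4 wild-type samples lay far from the others, a pattern that chance gives in about 1 of 20 groups. The gap of that sample, as a share of the range, was 0.854 for KP78a (replicate 2, at 11.73), 0.993 for Orc1 (replicate 3, at 11.80), 0.940 for c(3)G, 0.909 for foxo, 0.939 for lea and 0.984 for mt:ND3, where replicate 1 was the lowest in the last 4. All 6 were called and had no overlap between the genotypes, as had 2714 of all 2759 called transcripts and 39.7% of all transcripts. KP78a was chosen on that condition.

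For 36 transcripts the genotype difference at 3-to-5 hours and that at 1-to-3 hours were apart by over 2-fold, with an interaction at an adjusted p of 0.00028 to 0.0414 in limma. The named transcripts were largely chosen by their 3-to-5 hour differences, which enter the interaction. The values that follow are the difference at 3-to-5 hours minus the earlier one. In the germ plasm and translation they were 2.53 for exu, 2.14 for mtrm, 1.69 for aret, 1.67 for orb, 1.38 for BicC, 1.97 for pAbp and 1.26 for eIF4G. Among the largest higher genes they were 2.79 for CG46385, 2.35 for cnc, 2.04 for Brca2, 1.90 for sut1, 1.86 for CG4476 and 1.58 for CG14931. Among signalling and stem cell genes they were 2.27 for Pi3K21B, 2.06 for stet, 2.03 for InR, 1.92 for foxo, 1.87 for numb and -2.33 for SNCF. InR was not called at 3-to-5 hours and differed by -2.20 at 1-to-3 hours.

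Transcription and cell cycle genes gave 2.15 for MED26, 1.91 for CycA, 1.36 for ttk, 1.34 for c(3)G and -1.37 for Trl. The patterning genes gave -3.13 for Doc3, -1.59 for Doc1 and -1.46 for hkb. The others were 2.73 for Tsp74F, 2.04 for Cyp6a19, 1.68 for Cyp12c1, 1.13 for Rab8, -1.68 for mRpS11, -1.84 for ATPsyn-Cf6, -1.02 for Rpn12 and -4.61 for CG13653. The smaug levels of Cyp12c1 at both ages and of CG13653 at 3-to-5 hours lay within 1 of the controls' median, so their values are limited by the floor and that of Cyp12c1 is no measured change in the genotype difference. For smg it was 1.24, with differences of -0.94 at 3-to-5 hours and -2.18 at 1-to-3 hours.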

How the results depend on the processing

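The counts of 1458 higher and 1301 lower transcripts stayed within 1.5 times under the alternatives run, except treat, which tests against a 2-fold change and called 297 higher and 200 lower. SAM called 1597 and 1581, all 7 groups in 1 fit 1250 and 1014, median centring 1577 and 1212, cyclic loess 1403 and 1351, and without dim transcripts 1119 and 993 of 8366. Leaving out 1 sample gave 1373 to 1474 higher and 1182 to 1274 lower. With the replicate number as a block 1309 were higher and 1132 lower. Samples of one number had correlated deviations of 0.02, -0.02 and -0.11, none over 0.1, and samples of different numbers of -0.09 to 0.15, so the numbers were not taken as pairs. Under the replicate block nos (adjusted p = 0.0520), bam (0.0545) and Cyp6u1 (0.0863) missed the threshold of limma. The difference of Hsp83 turned to -0.12 with a second quantile normalization, and leaving out 1 sample gave -0.029 (without smaug replicate 1) to 0.13 (without smaug replicate 3), with -0.0060 without smaug replicate 2 and -0.0055 without wild-type replicate 1. The cause was not tested. The fit of all 7 groups leaves each difference unchanged and shares 1 spread over groups. These include wild-type 5-to-7 hour replicates 3 and 4, at 68.3% and 60.4% of the somatic level of soma-enriched transcripts. In that fit 10 of 106 named transcripts missed the threshold: the dimmer smg transcript, Edc3, Gapdh1, Dl, jbug, Pxn, MED26, Cyp303a1, nos and bam. The bam difference also missed it without smaug replicate 2 or 3, or without wild-type replicate 1 or 2.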

Other observations

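The feature for the GFP transgene, outside the 16623 transcripts, had signals of 12.57, 11.36 and 11.11 in smaug PGCs, against 12.92, 13.21, 12.90 and 12.97 in wild-type PGCs of 3-to-5 hours. At 1-to-3 hours it was at 10.8 to 11.3 in smaug and 12.4 to 13.0 in wild-type PGCs, and at 12.5 to 13.0 in the sorted wild-type somatic cells. It was lower in each smaug sample than in each wild-type sample at these ages. At 5-to-7 hours the genotypes overlapped, at 11.8 to 13.2 in smaug and 12.4 to 13.4 in wild-type PGCs.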
